A study of Mus musculus with 16 samples.

Results

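Liver expression was followed for 10 genes, namely the clock output genes Dbp, Tef, Hlf, Nfil3, Bhlhe40, Bhlhe41, Ciart and Noct and the rhythmic liver genes Rgs16 and Serpina12, 10 of the 24970 genes of a mouse liver RNA-seq count table. The genes were taken by name, with earlier results of these data known, and each gene's row was chosen by its measured values as the RefSeq transcript with the highest mean count over the 16 libraries. All 10 passed the filter on low counts and were tested among 12913 genes. Because of how they were chosen, the p-values below describe the members and are not independent evidence about clock genes in general.

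The 16 livers came from 4 groups of 4: wild-type C57BL/6 Ntac mice on vehicle, wild-type mice on TCPOBOP, humanized PXR-CAR-CYP3A4/3A7 mice on vehicle, and humanized mice on TCPOBOP. TCPOBOP, a synthetic compound that activates the constitutive androstane receptor (CAR) of mice, was given at 3 mg/kg in 2 administrations 24 h apart, with livers taken after 48 h, and vehicle mice received corn oil with 2% DMSO. The humanized strain carries human versions of the xenobiotic receptors PXR and CAR and of CYP3A4 and CYP3A7, as its name says. How it was made, whether its controls were littermates, the sex and age of the mice, their feeding, and the time of day of collection are all unlabelled (not given in the sources used here). For rhythmic genes, a difference in collection time or feeding between groups cannot be told apart from strain or treatment in this design. The labels do not say that each library came from a separate mouse, so p-values measure the spread between libraries.

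The circadian clock of the liver is a feedback loop. CLOCK and BMAL1 (Arntl) bind E-box elements and drive the Per and Cry genes, whose proteins then block them, and REV-ERB and ROR receptors in turn set the rhythm of Arntl. The loop drives output regulators: DBP, TEF and HLF activate genes through the D-box, NFIL3 represses through the same element, and feeding and body temperature act on liver rhythms as well. In liver, such outputs time the genes of sugar, lipid, bile acid and drug metabolism.

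Promoter windows from RefSeq (GRCm38.p6), from 250 bases before to 50 bases after a transcript start, were found for 9 of the 10 genes, 10 windows in all, and none was in the table for Bhlhe40. For each of the 4 members with a listed element, 1 window is printed below to show where those letters lie, and for Tef it is the first of its 2 windows. The E-box searched was CACGTG, which reads the same on both strands. It was present in 4 windows of 3 members (Ciart, Tef and Bhlhe41), and in 7.15% of all 32851 RefSeq windows of this length. Ciart held 3 copies, at 116, 58 and 44 bases before the start. Bhlhe41 held 1 copy at 153 bases before the start, and Tef held 1 in each of its 2 windows, at 127 and 138 bases. The D-box (TTATGTAA or TTACGTAA, both strands) was in no member window and in 1.06% of all windows. The ROR and REV-ERB half-site (TAGGTCA, both strands) was in Nfil3 alone among the members, 12 bases before the start, and in 2.61% of all windows. The Nfil3 window lies wholly inside the gene span (chr13:52967209-52982878), so this start is an internal one. The same holds for the Tef window not printed (chr15:81811164-81811463), inside the Tef span (chr15:81802673-81826863). A match describes letters in the window and not a bound site, and elements outside the windows were not searched. Capitals mark the E-box in the first 3 lines and the half-site, read on the opposite strand, in the last.
Ciart, chr3:95882179-95882478, minus strand: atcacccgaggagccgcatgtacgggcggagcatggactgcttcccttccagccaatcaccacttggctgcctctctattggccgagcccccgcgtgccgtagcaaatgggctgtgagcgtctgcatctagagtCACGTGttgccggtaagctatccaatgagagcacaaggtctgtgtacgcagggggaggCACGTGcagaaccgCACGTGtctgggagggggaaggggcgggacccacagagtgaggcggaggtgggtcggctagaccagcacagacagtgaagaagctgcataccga
Tef, chr15:81802423-81802722, plus strand: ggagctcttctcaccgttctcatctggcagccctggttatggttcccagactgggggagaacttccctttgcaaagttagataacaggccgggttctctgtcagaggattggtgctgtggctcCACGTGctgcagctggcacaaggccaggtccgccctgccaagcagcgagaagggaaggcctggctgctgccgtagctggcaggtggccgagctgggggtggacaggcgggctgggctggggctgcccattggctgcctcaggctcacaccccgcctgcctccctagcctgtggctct
Bhlhe41, chr6:145865371-145865670, minus strand: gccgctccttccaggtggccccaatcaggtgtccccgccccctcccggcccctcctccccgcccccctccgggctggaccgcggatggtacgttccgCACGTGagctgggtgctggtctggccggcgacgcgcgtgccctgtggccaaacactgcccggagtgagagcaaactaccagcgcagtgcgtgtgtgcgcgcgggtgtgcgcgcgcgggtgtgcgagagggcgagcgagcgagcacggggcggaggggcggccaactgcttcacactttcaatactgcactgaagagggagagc
Nfil3, chr13:52980990-52981289, minus strand: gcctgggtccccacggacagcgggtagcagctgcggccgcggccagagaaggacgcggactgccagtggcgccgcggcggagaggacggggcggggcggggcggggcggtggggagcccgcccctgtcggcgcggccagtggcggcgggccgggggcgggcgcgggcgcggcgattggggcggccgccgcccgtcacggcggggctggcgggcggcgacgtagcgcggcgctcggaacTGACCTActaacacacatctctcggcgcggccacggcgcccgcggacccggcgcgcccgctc

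Library totals were 30228724 to 37998473 counts in the wild-type TCPOBOP group and 11827994 to 19483951 in the other 3 groups, so depth coincided with 1 group. The tissue label was met by the hepatocyte markers Alb, Apoa1, Ttr, Cps1 and Serpina1a, which summed to 22784 to 87573 CPM in every library. The strain label was met by mouse Nr1i3, which encodes CAR, at 93.4 to 107 CPM in wild-type vehicle and 1.63 to 2.70 CPM in humanized vehicle livers. TCPOBOP raised Cyp2b10, the classical CAR target, 66.2-fold in wild-type and 6.04-fold in humanized livers. Expression is given in TMM-scaled CPM, in the order of replicates 1 to 4. The base is the library's summed counts of the 12913 genes tested, after TMM scaling, and not the library total given above. Log2 differences are given ± SE, with two-sided edgeR quasi-likelihood p-values adjusted by the Benjamini-Hochberg method over all 12913 genes and called under 0.05.

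The 4 humanized vehicle livers stood apart for most of the 10 genes. In all 4 of them, Dbp, Tef, Bhlhe40, Rgs16 and Serpina12 were below each of the other 12 livers, while Nfil3 and Noct were above each of the other 12. Hlf, Bhlhe41 and Ciart showed neither pattern. The share of all genes with either pattern was not computed, so whether this is unusual for the group was not tested. As these 4 livers enter the TCPOBOP effect in humanized mice, the interaction and the strain difference under vehicle, those comparisons share libraries and are not separate evidence.

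**Figure D1:**
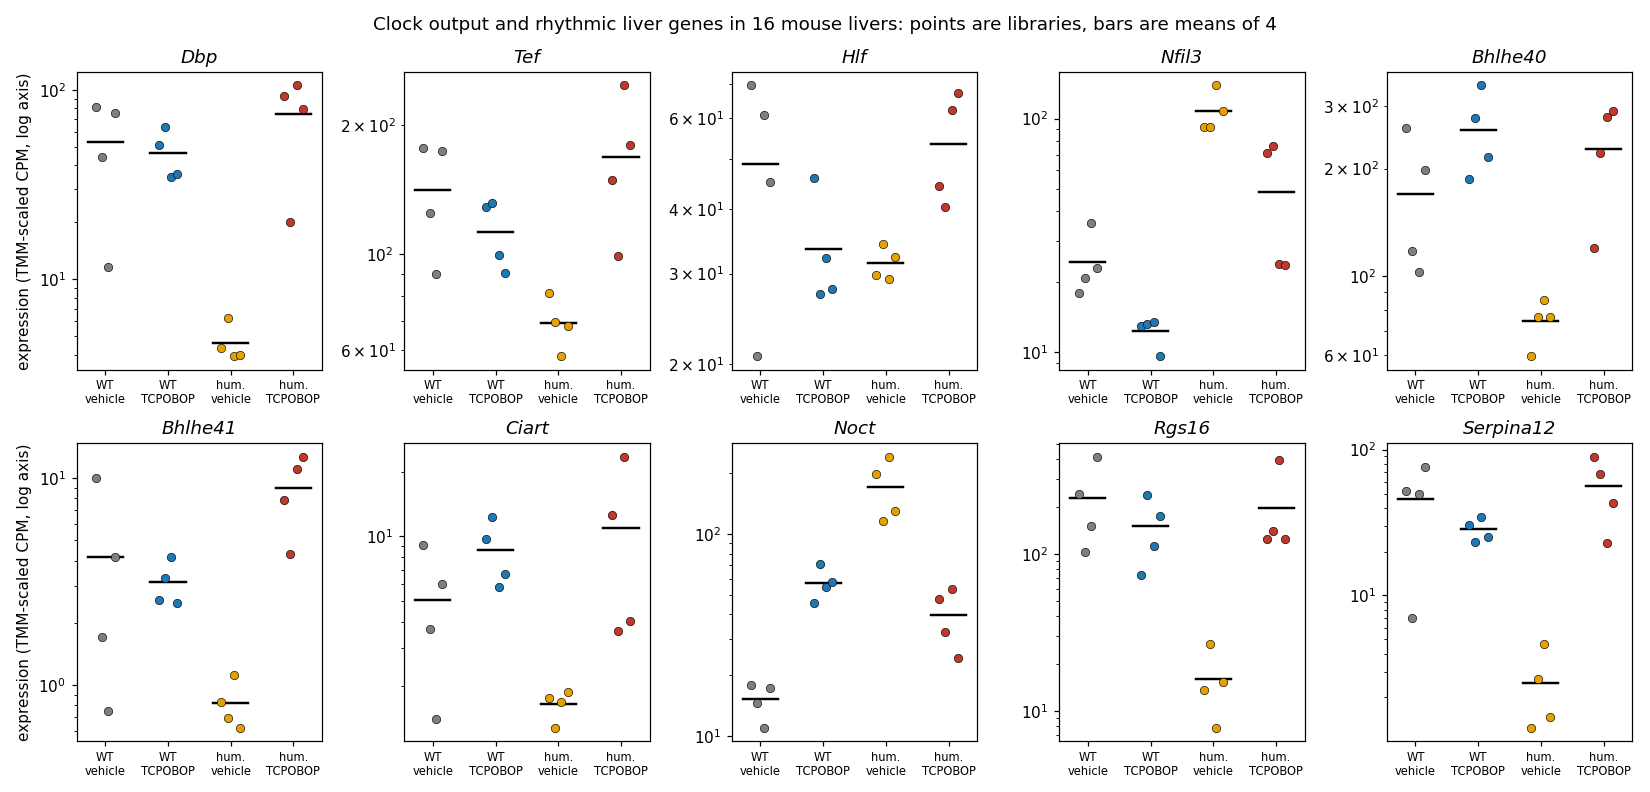
Expression of each of the 10 genes (TMM-scaled CPM, log axis) in every library of the 4 groups, with points for libraries and bars for means of 4. The humanized vehicle points lie lowest of all groups for Dbp, Tef, Bhlhe40, Rgs16 and Serpina12 and highest for Nfil3 and Noct.

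The first question was how humanized and wild-type livers differed under vehicle. Of the 10 genes, 6 were lower in humanized livers (Dbp, Tef, Bhlhe40, Bhlhe41, Rgs16 and Serpina12), 2 were higher (Nfil3 and Noct), and Hlf and Ciart did not pass. Among all genes, 8.95% were called lower and 7.11% higher. The groups did not overlap for 7 of the 10, against 26.4% of all genes. The median log2 difference of the members was -1.38, against 0.00 over all genes tested.

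Dbp, the PAR-domain activator whose mRNA has one of the strongest daily swings in liver (NM_016974, chr7:45705100-45710203), was at 81.3, 44.4, 11.6 and 75.2 CPM in wild-type vehicle livers. In humanized vehicle livers it was at 4.35, 6.29, 3.92 and 3.97 CPM. The groups did not overlap, although wild-type replicate 3 lay far below its group. The mean fell from 53.1 ± 32.0 to 4.63 ± 1.12 CPM (SD, n = 4), an 11.4-fold difference (log2 -3.51 ± 0.54, edgeR adjusted p = 0.00131). Tef, a second PAR-domain activator (NM_017376, chr15:81802673-81826863), was at 89.9 to 177 CPM in wild-type and 58.0 to 81.5 CPM in humanized vehicle livers. It was 2.04-fold lower without overlap (-1.03 ± 0.26, adjusted p = 0.0168), and the call was lost without humanized vehicle replicate 3 (-0.95, adjusted p = 0.0557). Hlf, the third of these activators (NM_172563, chr11:90336535-90390917), was at 20.7 to 69.6 and 29.3 to 34.2 CPM, with the humanized values inside the wild-type range (-0.64 ± 0.29, adjusted p = 0.122). Without wild-type vehicle replicate 2, the library lowest for Hlf, the difference was -0.90 with an adjusted p of 0.0149.

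Nfil3, the repressor that competes with DBP at the D-box (NM_017373, chr13:52967209-52982878), ran the other way. Its wild-type vehicle values were 17.9, 20.6, 35.8 and 22.9 CPM, and its humanized vehicle values 91.7, 92.4, 139 and 108 CPM. The lowest humanized liver lay well above the highest wild-type one. Mean Nfil3 was 24.3 ± 7.91 and 107.7 ± 21.9 CPM (SD, n = 4), a 4.42-fold higher level in humanized livers (2.14 ± 0.35, adjusted p = 0.00196). The ratio of the Dbp to the Nfil3 count, which needs no scaling between libraries, was 0.325 to 4.54 in wild-type vehicle and 0.0283 to 0.0680 in humanized vehicle livers. Nfil3 counts thus exceeded Dbp counts in all 4 humanized vehicle livers and in 1 wild-type vehicle liver.

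Noct, or nocturnin, a rhythmic enzyme that removes a phosphate from NADP(H) and is tied to lipid handling (NM_009834, chr3:51224447-51251654), showed the smallest p of the 10 genes in this comparison. It was at 17.9, 14.5, 11.0 and 17.3 CPM in wild-type vehicle livers and at 199, 116, 242 and 130.0 CPM in humanized vehicle livers. Every humanized liver exceeded every wild-type liver. The mean was 15.2 ± 3.16 against 171.8 ± 59.1 CPM (SD, n = 4), an 11.4-fold higher level in humanized livers (3.50 ± 0.29, adjusted p = 1.43e-06).

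Rgs16, a rhythmic liver regulator that speeds GTP hydrolysis by G proteins (NM_011267, chr1:153740353-153745468), was at 242, 103, 151 and 416 CPM in wild-type vehicle livers. It was at 13.7, 26.8, 7.85 and 15.2 CPM in humanized vehicle livers. The groups were far apart although each varied widely within itself. Rgs16 was 14.3-fold lower in humanized livers (-3.84 ± 0.54, adjusted p = 0.000673). Serpina12, which encodes the serpin vaspin (NM_026535, chr12:104028769-104044443), was at 51.9, 7.04, 49.9 and 75.8 CPM in wild-type vehicle livers and at 1.24, 2.68, 4.63 and 1.46 CPM in humanized ones. Wild-type replicate 2 was near the humanized range but did not enter it. The difference was 18.9-fold (-4.24 ± 0.61, adjusted p = 0.000764), on 12 to 33 counts per humanized vehicle library.

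Bhlhe40 and Bhlhe41 encode DEC1 and DEC2, which repress transcription from E-boxes. Bhlhe40 (NM_011498, chr6:108660629-108666925) was at 102 to 259 CPM in wild-type and 59.5 to 85.8 CPM in humanized vehicle livers, a 2.27-fold difference without overlap (-1.18 ± 0.30, adjusted p = 0.0185). The call was lost without wild-type vehicle replicate 1 (adjusted p = 0.0583), humanized vehicle replicate 1 (0.0664) or humanized vehicle replicate 4 (0.0506). Bhlhe41 (NM_001271768, chr6:145858243-145865420) was scarce, at 9.98, 1.71, 0.751 and 4.18 CPM in wild-type and 0.83, 0.698, 1.12 and 0.626 CPM in humanized vehicle livers. Its groups overlapped, since wild-type replicate 3 was lower than 2 humanized livers, and humanized libraries held only 6 to 8 counts. It was 4.90-fold lower (-2.29 ± 0.62, adjusted p = 0.0227), a call lost without wild-type vehicle replicate 1 (-1.47, adjusted p = 0.0781) and without humanized vehicle replicate 1, 3 or 4 (adjusted p = 0.0664, 0.0501 and 0.0663). Ciart, or CHRONO, a repressor of CLOCK and BMAL1 (NM_001033302, chr3:95878500-95882257), was at 1.41 to 9.10 and 1.28 to 1.88 CPM and did not pass (-1.58 ± 0.60, adjusted p = 0.0782). Without wild-type vehicle replicate 3, the lowest of its group, the Ciart difference was -1.90 with an adjusted p of 0.0412.

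Core clock genes differed in this comparison too. Of 16, Npas2, Arntl and Cry1 were higher in humanized vehicle livers and Per3 and Cry2 lower. Arntl, which encodes the activator BMAL1, was at 24.7 to 31.0 CPM in humanized and 5.14 to 16.1 CPM in wild-type vehicle livers, a 3.08-fold difference (1.62 ± 0.39, adjusted p = 0.0152). Per3 was 4.78-fold lower (-2.26 ± 0.45, adjusted p = 0.00667). Among 12 genes that feeding raises, Pklr, Thrsp, Fasn, Elovl6, Acaca and Me1 were lower and Mlxipl higher. Among genes that fasting raises, Pdk4 was higher, and of 11 heat- and cold-responsive genes with daily rhythms none passed.

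Summed markers of other cells also separated these groups. Kupffer cell markers (7 genes) summed to 369 to 792 CPM in wild-type and 166 to 309 CPM in humanized vehicle livers. Sinusoidal endothelial markers (6 genes) summed to 314 to 670 and 192 to 273 CPM, and erythroid markers (4 genes) to 130.3 to 202 and 99.0 to 122 CPM. Taken singly, 6 of the 7 Kupffer cell markers were called lower in humanized livers. Of the endothelial markers only Stab2 and Fcgr2b were called lower, and of the 3 erythroid markers tested Hbb-bs and Hba-a1. The part of these cells in the differences above was not tested. In bulk liver, fewer cells of a type and less RNA per cell cannot be told apart.

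In humanized mice, TCPOBOP was compared with vehicle to ask what the compound changes where mouse CAR is replaced. Of the 10 genes, 7 rose (Dbp, Tef, Bhlhe40, Bhlhe41, Ciart, Rgs16 and Serpina12), Noct fell, and Hlf and Nfil3 did not pass. Over all genes, 1.32% rose and 1.19% fell. The groups did not overlap for any of the 10, with 8 higher and 2 lower under TCPOBOP, against 9.95% of all genes in either direction. The members' median log2 change was 2.17, against 0.02 over all genes tested.

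Dbp reached 93.2, 20.1, 106 and 79.6 CPM in humanized TCPOBOP livers, from at most 6.29 CPM under vehicle. Replicate 2 was the lowest of the treated livers, yet above every vehicle liver. The change was 16.1-fold (4.01 ± 0.55, edgeR adjusted p = 0.00132). Tef was at 99.1 to 247 CPM after treatment, a 2.43-fold rise (1.28 ± 0.26, adjusted p = 0.0156), which did not pass without humanized vehicle replicate 3 (adjusted p = 0.0652) or 4 (0.0679). Hlf was at 44.3, 40.5, 62.3 and 67.2 CPM, above each vehicle liver, with a log2 change of 0.77 ± 0.29 (adjusted p = 0.162). Without wild-type vehicle replicate 2 in the fit, the Hlf change was 0.79 with an adjusted p of 0.0336.

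Nfil3 was at 71.2, 75.9, 23.8 and 23.5 CPM in humanized TCPOBOP livers. These values split into a higher and a lower pair, both below the vehicle livers. The log2 change was -1.15 ± 0.34 (adjusted p = 0.0771). It passed when TCPOBOP replicate 1 or 2 of the higher pair was left out (adjusted p = 0.0280 and 0.0370) and in the DESeq2 Wald test (0.0267). Dbp counts exceeded Nfil3 counts in 3 of the 4 treated livers, with a ratio from 0.265 in replicate 2 to 4.45 in replicate 3.

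Noct was at 47.8, 32.6, 53.7 and 24.3 CPM in humanized TCPOBOP livers, all below the 116 to 242 CPM of the vehicle livers. It fell 4.33-fold (-2.12 ± 0.27, adjusted p = 0.00116) and was the only member called lower. Rgs16 was at 124.9, 141, 394 and 124.9 CPM, a 12.3-fold rise (3.62 ± 0.53, adjusted p = 0.0019). Replicate 3 stood far above the other treated livers for Rgs16, and all 4 exceeded the vehicle livers. Serpina12 was at 89.5, 68.4, 22.9 and 42.9 CPM, which was 22.9-fold above vehicle (4.52 ± 0.61, adjusted p = 0.00132) and the largest log2 change of the 10 genes.

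Bhlhe40 was at 119.9 to 289 CPM, a 3.05-fold rise (1.61 ± 0.31, adjusted p = 0.0111), with the call lost without humanized vehicle replicate 1 (adjusted p = 0.0565). Bhlhe41 was at 7.83, 4.32, 11.1 and 12.7 CPM, an 11.0-fold rise from a vehicle level of 6 to 8 counts per library (3.47 ± 0.61, adjusted p = 0.00671). Both genes thus stood above vehicle in all 4 treated livers. Ciart was at 12.6, 3.63, 23.6 and 4.03 CPM, above every vehicle liver but spread over 6.50-fold among treated livers. It rose 6.63-fold (2.73 ± 0.59, adjusted p = 0.0241), a call lost without any 1 of the 4 humanized vehicle libraries (adjusted p = 0.0909, 0.0514, 0.0692 and 0.0793) or without TCPOBOP replicate 3 (0.0825).

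Of the 16 core clock genes, Per3 and Nr1d1 rose and Cry1 and Arntl fell in humanized livers under TCPOBOP. Nr1d1, which encodes the repressor REV-ERB alpha, was at 56.6 to 99.4 CPM under vehicle and 124.7 to 139.8 CPM under TCPOBOP (0.86 ± 0.22, adjusted p = 0.0457). Arntl was at 6.20, 16.2, 2.66 and 7.82 CPM in treated livers, all below vehicle (-1.79 ± 0.40, adjusted p = 0.0269). Of 16 other rhythmic liver genes, Usp2, Gys2 and Wee1 rose and Lonrf3 and Cdkn1a fell. Among genes raised by fasting, Pdk4 fell; of those raised by feeding, Thrsp and Pklr rose; of the heat- and cold-responsive genes, none passed. Stellate cell markers (7 genes) summed to 314 to 336 CPM under vehicle and 109 to 245 CPM under TCPOBOP, and neutrophil markers (4 genes) to 9.31 to 15.1 and 4.51 to 5.93 CPM. Taken singly, only Ecm1 of the 7 stellate markers was called, as fallen. None of the neutrophil markers was called, and only 2 of the 4 were tested. Whether these cells had a part in the changes of the 10 genes was not tested.

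**Figure D2:**
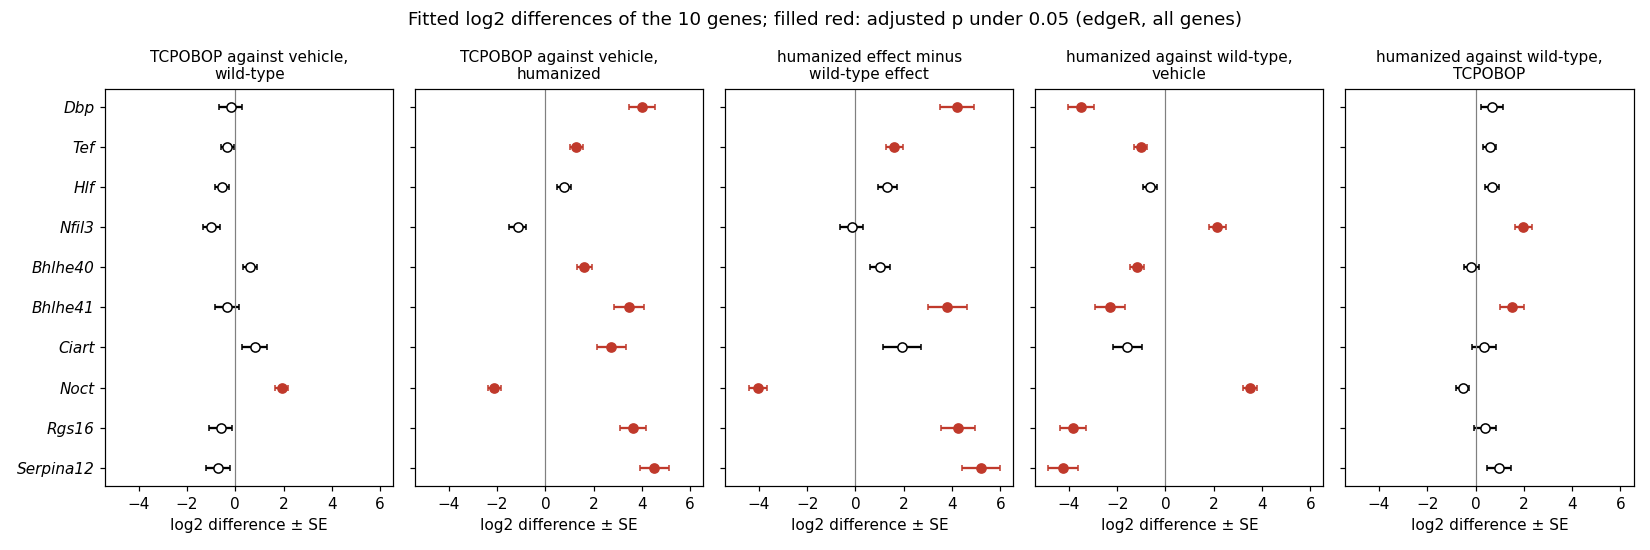
Fitted log2 differences ± SE (horizontal axes) of the 10 genes in each comparison; filled red points have an adjusted p under 0.05. The TCPOBOP effect in humanized livers and the strain difference under vehicle hold 8 called genes each, against 1 in the wild-type TCPOBOP effect.

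In wild-type mice, TCPOBOP changed 1 of the 10 genes past the threshold: Noct rose, while none fell and 9 did not pass. Over all genes, 8.10% rose and 4.99% fell. The groups did not overlap for 2 of the 10 (Noct and Nfil3), against 20.9% of all genes, and the members' median log2 change was -0.34, against -0.02 over all genes. Noct was at 45.5, 71.0, 54.8 and 57.5 CPM under TCPOBOP, above all 4 vehicle livers, a 3.78-fold rise (1.92 ± 0.28, edgeR adjusted p = 0.000104). Nfil3 was at 12.9, 13.2, 13.4 and 9.58 CPM, below all 4 vehicle livers, with a log2 change of -0.99 ± 0.34 and an adjusted p of 0.0652. Nfil3 passed in a fit of the wild-type groups alone (adjusted p = 0.0170), in DESeq2 (0.0264), and without any 1 of the 4 humanized TCPOBOP livers (0.0359 to 0.0461).

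The other 8 genes overlapped between wild-type vehicle and TCPOBOP livers. Dbp was at 51.0, 63.9, 34.6 and 35.9 CPM under TCPOBOP, within its vehicle range (-0.19 ± 0.47, adjusted p = 0.859). Its direction was not settled, since it was 0.069 without vehicle replicate 1 and 0.025 without vehicle replicate 4. Under TCPOBOP, Tef was at 90.5 to 132 CPM, Hlf at 27.4 to 46.0 CPM and Serpina12 at 23.4 to 34.4 CPM, all within their vehicle ranges. Rgs16 (73.2 to 238 CPM), Bhlhe40 (187 to 342 CPM), Bhlhe41 (2.50 to 4.16 CPM) and Ciart (5.80 to 12.3 CPM) also overlapped with vehicle. Hlf passed without vehicle replicate 2 (-0.81, adjusted p = 0.0155).

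Of the 16 core clock genes, 1 rose (Csnk1e) and 1 fell (Cry1, -1.07 ± 0.20, adjusted p = 0.00142), shares near the 8.10% and 4.99% of all genes that rose and fell in wild-type livers. Of the other rhythmic liver genes, Tfrc, Por and Wee1 rose and Upp2 fell. Among genes that fasting raises, Pck1, Cpt1a, Irs2, Ppargc1a and Angptl4 fell, and of the 12 raised by feeding only Elovl6 passed, upward. Heat shock genes Hspa1a, Hspd1, Hspa1b, Hsp90aa1 and Hspe1 rose, and the cold-inducible Cirbp fell. Summed hepatocyte markers were 51724 to 87573 CPM under vehicle and 22784 to 35687 CPM under TCPOBOP, and cholangiocyte markers (5 genes) 34.0 to 38.5 and 24.8 to 30.2 CPM. Taken singly, Alb and Ttr were the only hepatocyte markers called, both as fallen, and no cholangiocyte marker was called. The part of these cells in the Noct change was not tested.

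The TCPOBOP effects of the strains were compared by an interaction term, positive where the humanized change exceeded the wild-type change. Of the 10 genes, 5 were called positive (Dbp, Tef, Bhlhe41, Rgs16 and Serpina12) and Noct negative, while 4 did not pass. Over all genes, 3.48% were positive and 3.98% negative, and the medians were 1.77 for the members and 0.00 for all genes. Noct had the smallest p of the 10: it rose in wild-type and fell in humanized livers, a difference of -4.04 ± 0.39 (edgeR adjusted p = 7.07e-06). The difference was 5.22 ± 0.78 for Serpina12 (adjusted p = 0.000606), 4.23 ± 0.70 for Rgs16 (0.00127), 4.20 ± 0.71 for Dbp (0.00148), 3.81 ± 0.80 for Bhlhe41 (0.00657) and 1.61 ± 0.36 for Tef (0.0105).

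The remaining 4 genes showed no called difference between the strains' effects. Hlf was close to the threshold (1.32 ± 0.40, adjusted p = 0.0528). It passed in 7 of 26 alternatives and stayed uncalled in 19. Among the 7 were DESeq2 size factors in edgeR (1.38, adjusted p = 0.0450) and the DESeq2 Wald test (1.39, adjusted p = 0.0152). Ciart (1.93 ± 0.79, adjusted p = 0.156) and Bhlhe40 (1.01 ± 0.42, adjusted p = 0.171) rose in humanized livers, but their larger change there was not separated from the wild-type change. Nfil3 had a log2 change of -0.99 in wild-type and -1.15 in humanized livers, neither called, and its interaction was -0.16 ± 0.48 (adjusted p = 0.900).

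Humanized and wild-type livers were also compared under TCPOBOP, where 2 of the 10 genes passed. Nfil3 and Bhlhe41 were higher in humanized livers, none of the 10 was lower, and 8 did not pass, where 11.8% of all genes were higher and 12.8% lower. The groups did not overlap for those 2 genes, against 27.4% of all genes. Nfil3 was 3.95-fold higher (1.98 ± 0.35, edgeR adjusted p = 0.000514), from 9.58 to 13.4 CPM in wild-type and 23.5 to 75.9 CPM in humanized TCPOBOP livers. Bhlhe41 was 2.86-fold higher (1.52 ± 0.50, adjusted p = 0.0331), a call lost without wild-type TCPOBOP replicate 1, 2 or 4 (adjusted p = 0.0783, 0.0636 and 0.0927) or humanized TCPOBOP replicate 3 or 4 (0.0613 and 0.0752). Noct, which had the smallest p of the 10 genes under vehicle, was at 45.5 to 71.0 and 24.3 to 53.7 CPM, with overlap (-0.53 ± 0.26, adjusted p = 0.150). The log2 difference of Dbp was 0.69 ± 0.47 (adjusted p = 0.296) and that of Serpina12 0.98 ± 0.50 (adjusted p = 0.161). The median of the members was 0.63, against 0.01 over all genes. Of the core clock genes, Nr1d1 and Cry1 were higher and Csnk1e lower in humanized TCPOBOP livers.

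Ordered by mean level, Dbp ran from humanized vehicle (4.63 ± 1.12 CPM) through wild-type TCPOBOP (46.3 ± 13.8 CPM) and wild-type vehicle (53.1 ± 32.0 CPM) to humanized TCPOBOP (74.7 ± 37.9 CPM), and the upper 3 groups overlapped. Nfil3 ran from wild-type TCPOBOP (12.3 ± 1.79 CPM) through wild-type vehicle (24.3 ± 7.91 CPM) and humanized TCPOBOP (48.6 ± 28.9 CPM) to humanized vehicle (107.7 ± 21.9 CPM), with overlap of the middle 2 only. Noct was lowest in wild-type vehicle (15.2 ± 3.16 CPM), followed by humanized TCPOBOP (39.6 ± 13.5 CPM) and wild-type TCPOBOP (57.2 ± 10.5 CPM), which overlapped, and highest in humanized vehicle livers (171.8 ± 59.1 CPM). By means, the Noct order was thus the reverse of the Dbp order, except that wild-type vehicle and humanized TCPOBOP livers changed places. This opposition lay between groups: Pearson's r of log2 Dbp and Noct was -0.62 over the 16 libraries. For deviations from the group means it was 0.39.

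**Figure D3:**
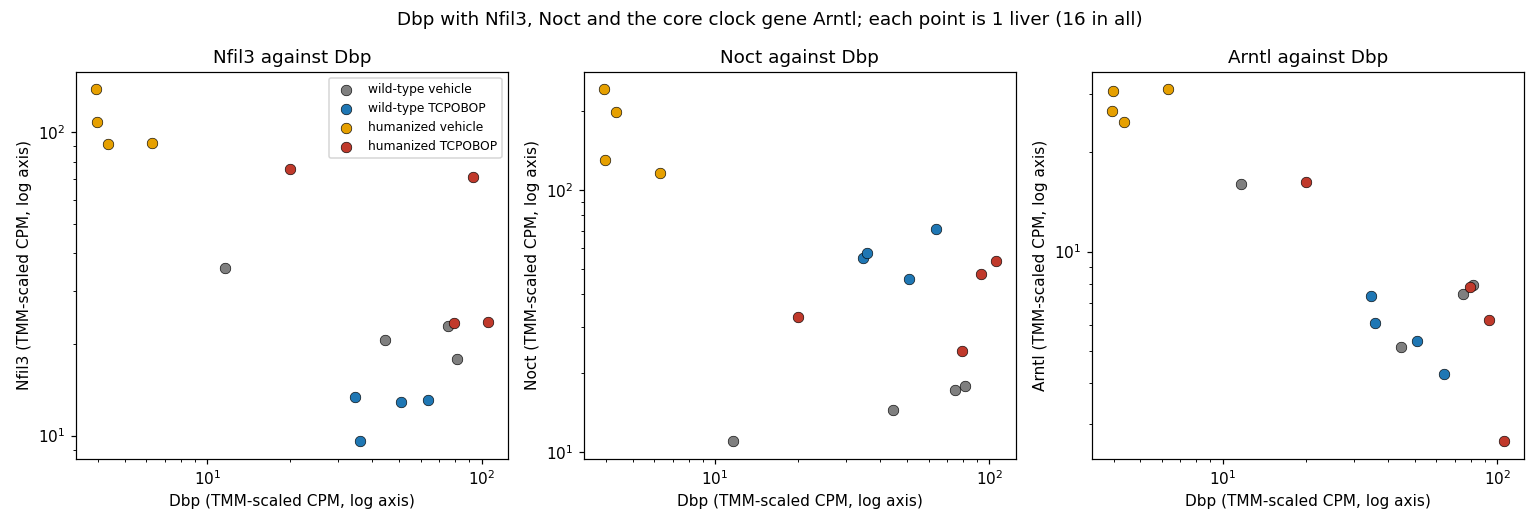
Nfil3, Noct and Arntl (vertical axes) against Dbp (horizontal axes), all in TMM-scaled CPM on log axes, with 1 point per liver. The 4 humanized vehicle livers, at 3.92 to 6.29 CPM of Dbp, lie at the upper left of each panel. All 4 wild-type vehicle livers have low Noct (11.0 to 17.9 CPM). Among them, replicate 3 is lowest for both Dbp and Noct.

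Levels could be compared between genes only per kilobase of transcript, and this was done for 9 genes, leaving out Bhlhe41. In humanized vehicle livers the highest were Noct (56.2 ± 19.3 CPM per kilobase), Nfil3 (53.1 ± 10.8) and Bhlhe40 (24.0 ± 3.52). In the other 3 groups Rgs16 and Bhlhe40 held the first 2 places, with Rgs16 at 97.6 ± 59.0 and Bhlhe40 at 54.4 ± 23.5 CPM per kilobase in wild-type vehicle livers. Serpina12 was last of the 9 in humanized vehicle livers, at 0.678 ± 0.420 CPM per kilobase, and the fifth in wild-type vehicle livers.

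Livers of 1 group differed among themselves in several of the 10 genes at once. Wild-type vehicle replicate 3 was the lowest of its group for Dbp, Tef, Bhlhe40, Bhlhe41, Ciart and Noct and the highest for Nfil3, and it also had the highest Arntl (16.1 CPM) and the lowest Per3 (7.32 CPM) of the group. Wild-type vehicle replicate 1 was the highest of that group for 7 of the 10. Humanized TCPOBOP replicate 2 was the lowest of its group for Dbp, Tef, Hlf, Bhlhe41 and Ciart and the highest for Nfil3, with the highest Arntl (16.2 CPM) and the lowest Per3 (5.86 CPM). The ratio of the highest to the lowest liver of a group had a median over the 10 genes of 3.69 in wild-type vehicle, 1.67 in wild-type TCPOBOP, 1.56 in humanized vehicle and 3.04 in humanized TCPOBOP livers. By this median, spread within a group was widest in wild-type vehicle livers, and humanized vehicle and wild-type TCPOBOP livers were close. The largest ratio of any of the 10 genes was 3.72 in humanized vehicle and 3.25 in wild-type TCPOBOP livers.

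The genes whose log2 expression most resembled each member over the 16 libraries, among 12903 others, were found by Pearson's r, given as a description. These libraries share their groups, so r holds group differences as well as differences between livers. For Dbp they were Per3 (0.94), Rmdn3 (0.90) and Bri3bp (0.88), and Tef was close to Per3 (0.89) and Bri3bp (0.89). Hlf was closest to Mtmr10 (0.96), Acsm3 (0.93) and Bag4 (0.92), and Nfil3 to Mapk1ip1 (0.97), Lrrc71 (0.96) and Gstk1 (0.96). Per3, a core clock gene, was thus shared by Dbp and Tef. Usp2, a rhythmic deubiquitinase gene, was first for Ciart (0.92, then Arhgap32 at 0.88 and Lrrc28 at 0.85) and second for Bhlhe41 (0.85, after Dipk2a at 0.85 and before Tmtc2 at 0.81). Bhlhe40 was closest to Pfkfb3, Zfp106 and Acot11 (each 0.89), and Noct to AA986860 (0.93), Hacd1 (0.90) and Sik1 (0.89). Rgs16 was closest to Ces2e (0.92), Pex19 (0.90) and Cpox (0.89), and Serpina12 to Serinc2 (0.93), Lrpprc (0.92) and Them7 (0.91).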

How the data were processed

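Polyadenylated RNA of 16 mouse livers was sequenced. The authors deposited counts, whole numbers for 40458 RefSeq transcripts. STAR, DESeq2 and mm10 are named in the submitters' processing notes; versions, the counting program and strandedness were not given in the sources used here. Of counts of 20 or more, 74.9% were even; halving with rounding to the nearest even number would leave 3 in 4 even, so values may be halved counts and precision from them is approximate. Symbols came from RefSeq (40219 transcripts) and GENCODE tables (125), and 114 had none. The counts were fitted in edgeR 4.0.16 (limma 3.58.1, R 4.3.3) over all 16 libraries with TMM, filterByExpr and a quasi-likelihood F test, without covariates, and the code was tested on simulated data. All 10 members were named, with the called genes of the pathway lists and, per member, the 3 most similar genes. Members and lists were chosen with earlier results of these data known. Alternatives were DESeq2 1.42.0, other scalings, filters, transcript choice, thinning, 2-group fits, a replicate block and leaving out each library. The human transgenes were not analysed here, and a few list genes and similar genes are not reported here.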

Additional observations from a re-analysis of the deposited data

Results flagged for a closer look

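In 40 sets of 4 libraries (10 genes in 4 groups), 2 held a library far from the other 3 by Dixon's ratio, which chance gives in about 1 in 20 sets. Nfil3 was lowest in wild-type TCPOBOP replicate 4, at 9.58 CPM, while the other 3 livers held 12.9 to 13.4 CPM. Rgs16 was highest in humanized TCPOBOP replicate 3, at 394 CPM, while the other 3 held 124.9 to 141 CPM.

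The TCPOBOP effect differed between strains, by the edgeR interaction test, for 6 of the 10 genes. The humanized effect minus the wild-type effect on the log2 scale was 4.20 for Dbp, 1.61 for Tef, 3.81 for Bhlhe41, 4.23 for Rgs16, 5.22 for Serpina12 and -4.04 for Noct. In 5 of these contrasts a called humanized change stood against a wild-type change that did not pass, and Noct passed in both strains in opposite directions.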

How the results depend on the processing

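Over 26 alternatives, 1240 of 1300 log2 differences of the members kept their direction and their side of the threshold, 23 lost a call, 28 gained one and 9 changed sign. Those that changed sign were not called. For the wild-type TCPOBOP effect they were Dbp (0.069 without wild-type vehicle replicate 1 and 0.025 without replicate 4, range without 1 library -0.53 to 0.069) and Bhlhe41 (0.49 without replicate 1, range -0.71 to 0.49). For the strain difference under TCPOBOP they were Bhlhe40 (0.0006 without wild-type TCPOBOP replicate 3 and 0.058 without humanized TCPOBOP replicate 1, range -0.31 to 0.058), Ciart (-0.37, range -0.37 to 0.66) and Rgs16 (-0.20, range -0.20 to 0.71), the last 2 without humanized TCPOBOP replicate 3. For the interaction it was Nfil3 (0.068 without humanized TCPOBOP replicate 3 and 0.069 without replicate 4, range -0.44 to 0.069). In the wild-type TCPOBOP effect, 2 members were called in place of 1 with DESeq2 and with only the groups compared. Leaving out 1 library gave 1 to 2 members called there, 6 to 9 in humanized mice, 6 to 8 in the interaction, 6 to 9 between strains under vehicle and 1 to 4 under TCPOBOP. The cause was not tested. Deviations from the group means of same-numbered libraries correlated at -0.24 to 0.58, over 0.1 in 6 of 24 pairs. Between wild-type vehicle and wild-type TCPOBOP, all 4 pairs were positive (0.0998, 0.58, 0.22 and 0.18). Nothing in the labels ties the numbers to a shared litter or day, so same-numbered libraries were not treated as pairs. The replicate block was fitted over all 4 groups, so a pairing within wild-type mice alone was not tested. With the replicate block, called members numbered 1 in wild-type mice, 7 in humanized mice, 6 in the interaction, 8 between strains under vehicle and 1 in place of 2 under TCPOBOP. Ciart (2.64, adjusted p = 0.0510) and Bhlhe41 (1.43, adjusted p = 0.0524) were the calls lost. Over all genes, the 325 humanized calls became 765 with DESeq2, 182 with only those groups, 209 with the block, 214 after thinning and 74 to 960 without 1 library. Other all-gene counts were 963 for the interaction (1481 with DESeq2, 575 to 1782 without 1 library), 1691 in wild-type mice (1068 to 2190), 2074 under vehicle (621 to 3425) and 3175 under TCPOBOP (1963 to 4163). Bhlhe41 and Ciart had 6 to 8 and 11 to 18 counts in humanized vehicle libraries, and thinning to the shallowest library left the number of members called the same in each comparison.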
